A study of Bos taurus with 138 samples.

Results

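The comparison of polysomes with monosomes in bovine 8-cell embryos rested on 12 of the 138 RNA-seq libraries of the series, which were fractions F3, F4, F5, F8, F9 and F10 of sucrose gradients A and B. For each gradient, F8 to F10 were added up as polysomes and F3 to F5 as monosomes. The 4 libraries of F6 and F7 were summed as intermediate pools, so that the profile of a gene from F3 to F10 covered 16 libraries. The study fractionated oocytes and preimplantation embryos at 6 stages to learn which transcripts are taken up by ribosomes as development proceeds. The 8-cell embryos were Bos taurus embryos produced in vitro from slaughterhouse oocytes and frozen semen of a Holstein bull, and those of the best morphological grade were pooled. All of them were exposed to cycloheximide, which holds ribosomes on their transcripts, and were freed of the zona pellucida before freezing. The study describes the 2 gradients as biological replicates, and with a single sire and pooled embryos they do not represent separate animals.

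In a sucrose gradient, an mRNA that carries several ribosomes sediments further than an mRNA with a single ribosome or with ribosomal subunits. The share of a transcript in heavy fractions is therefore read as a sign of how many ribosomes it carries, although long coding sequences can hold more ribosomes than short ones. In cattle the major activation of the embryonic genome takes place around the 8-cell stage, when transcripts stored by the oocyte are still present and new transcripts from the embryo accumulate. Both kinds of transcript were measured here in the same fractions.

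The 16 libraries of F3 to F10 held between 6472577 and 17342859 counts, and 6637 to 11325 genes had at least 1 count. In the order of gradients A and B, the pools held 34543812 and 31760112 counts in monosomes, 14662109 and 19939710 in the intermediate fractions, and 22543733 and 34662212 in polysomes. Over 12419 genes that passed the filter on low counts, Pearson's r of log2(CPM + 1) between gradients was 0.877 for monosomes and 0.783 for polysomes, against 0.695 and 0.728 between monosomes and polysomes of gradients A and B. F7 of gradient A had the fewest genes and F10 of gradient A the lowest median r with the other 8-cell libraries (0.531), so the comparison was also made without each of these fractions. Levels are given as CPM, the counts of a gene per 1000000 counts of its pool, scaled with the TMM factors of edgeR. Each library was amplified on its own, so a value gives the place of a gene among all RNAs of its fraction, and a lower amount of one RNA cannot be told apart from a larger amount of the others. In pooled whole embryos, fewer cells with a transcript and less of it in each cell cannot be told apart either.

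Markers of the 8-cell embryo were present, with KLF17, a transcription factor of genome activation, at 494 and 696 CPM in monosomes and 414 and 620.1 CPM in polysomes. The pluripotency factor POU5F1 had 105 and 61.05 CPM in monosomes and 47.8 and 139 CPM in polysomes. Of the 6 embryo markers listed, KDM4E, DUXA and LEUTX were not among the symbols analysed here. The 5 oocyte markers were present in each pool, with summed levels of 1158 to 5421 CPM. Among markers of other cells, the 5 sperm genes summed to 0 to 6.51 CPM, and the 8 cumulus and granulosa genes to 234 and 354 CPM in monosomes and 51.4 and 84.5 CPM in polysomes. This fall was largely that of STAR, which alone had 210 and 335 CPM in monosomes and 50.2 and 42.9 CPM in polysomes. Of the rest, HAS2 also fell, while PTX3 and TNFAIP6 rose in gradient B.

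Genes that were higher in polysomes included 31 cytosolic ribosomal proteins and 15 nuclear genes of oxidative phosphorylation, and among genes with at least 50 CPM in the higher group the largest differences were those of PLAT, SERPINH1, TMEM176B and SPARC. Genes that were higher in monosomes included 7 oocyte genes, and by the same rule the largest differences were those of KLHL32, EIF4E1B and TONSL. In the edgeR quasi-likelihood test over 12419 genes, 128 genes were higher in polysomes at an adjusted p-value (Benjamini-Hochberg) below 0.05, which is 1.03% of the genes tested, and 88 were higher in monosomes, which is 0.709%. The unadjusted p-value was below 0.05 for 1999 genes. In all 216 called genes both polysome pools lay on the same side of both monosome pools, and the difference had the same sign in gradients A and B. The call was made on these pools, so this agreement is largely built in and is no separate support. Among all genes tested, 27.7% had both polysome pools above both monosome pools and 28.6% had both below. The median log2 difference over all genes was 0.07, and 51.4% of them lay above 0. The gene lists described below held 67 of the 128 genes and 16 of the 88.

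**Figure D1:**
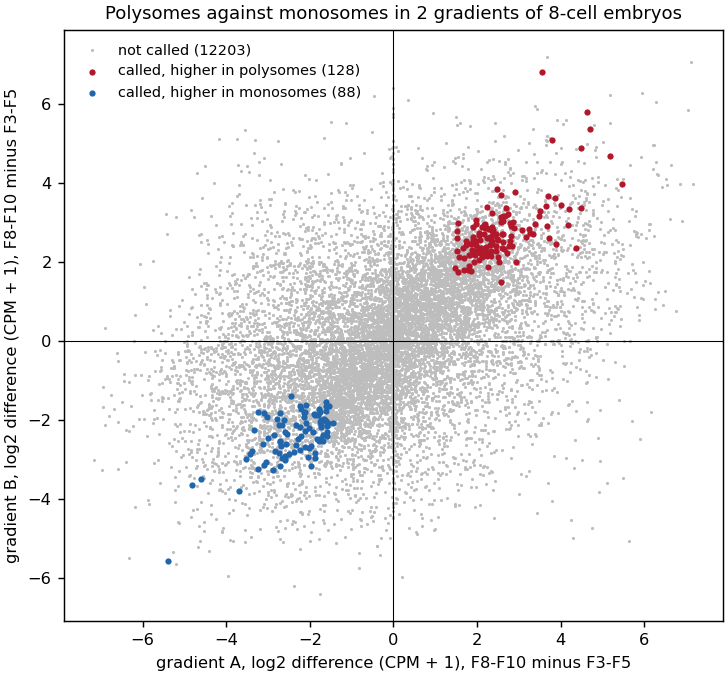
Each point is a gene, with its log2 difference of CPM + 1 between polysomes and monosomes in gradient A on the horizontal axis and in gradient B on the vertical axis. The 128 genes called higher in polysomes (red) lie in the upper right and the 88 called higher in monosomes (blue) in the lower left, while many genes not called (grey) differ in sign between the gradients. The calls were made on the same pools.

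The number of calls differed widely between fits. With the gradient as a replicate block, 269 genes were higher in polysomes and 244 in monosomes, and all 216 calls were among them. A fit of the 4 monosome and polysome pools alone made 0 calls by the edgeR quasi-likelihood test, with 2708 genes at an unadjusted p-value below 0.05, and a fit without F7 also made 0 calls, with 1742 genes at that level. Without F10 the calls were 33 and 13, and without F3 they were 12 and 14. Using gradient B alone for this stage, with the spread taken from all 6 stages, gave 82 and 54 calls, and using gradient A alone gave 431 and 832. All 216 genes kept their direction in each of these fits. An exact permutation test of 2 pools against 2 cannot go below p = 0.333, so the p-values here rest on spread shared across genes and measure only the difference between the 2 gradients.

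SPARC, a secreted glycoprotein that binds the extracellular matrix, had 44.7 and 33.9 CPM in the monosome pools of gradients A and B and 1017 and 1046 CPM in the polysome pools. Its log2 difference was 4.71 ± 0.40 (n = 2 gradients), or 26.2-fold, with an adjusted p of 0.0345 in the edgeR test, and the intermediate pools lay between (103 and 147 CPM). Throughout, the value after ± is a standard error implied by the edgeR quasi-likelihood test, the log2 difference divided by the square root of its F statistic. It rests on spread shared across genes and is not the spread of a gene's own 2 gradients. SERPINH1, the collagen chaperone of the endoplasmic reticulum, had 19.9 and 5.23 CPM in monosomes and 246 and 705 CPM in polysomes (log2 difference 5.24 ± 0.95, adjusted p = 0.0438). The groups did not overlap for either gene, but the gradients differed in detail, since SERPINH1 in F10 was 0.137 CPM in gradient A and 804 CPM in gradient B. PLAT, the tissue-type plasminogen activator, rose from 12.4 and 8.52 to 333 and 529.6 CPM (log2 difference 5.36 ± 0.72, adjusted p = 0.0371). Most of its polysome level came from F10, with 748 and 1264 CPM. PPIB, a prolyl isomerase of the endoplasmic reticulum, had 41.97 and 33.2 CPM in monosomes and 556 and 438 CPM in polysomes (log2 difference 3.73 ± 0.51, adjusted p = 0.0371). All 4 genes encode proteins of the secretory route or the matrix.

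The interferon-induced genes IFI6 and ISG15 were both among the 12 leading genes of polysomes. IFI6, a mitochondrial membrane protein, had 10.7 and 29.1 CPM in monosomes and 513 and 473 CPM in polysomes, 24.8-fold higher (log2 difference 4.63 ± 0.59, adjusted p = 0.0371). ISG15, a ubiquitin-like modifier, had 25.6 and 33.9 CPM in monosomes and 484 and 356 CPM in polysomes, 14.1-fold higher (log2 difference 3.82 ± 0.41, adjusted p = 0.0371). PLAT and SPARC had their highest value in F10 of both gradients, while IFI6 and ISG15 had reached 523 and 566 CPM and 349.6 and 314 CPM by F7. ISG15 was highest in F8 of both gradients, at 718 and 392 CPM. IFI6 was highest in F10 of gradient A, at 640 CPM, and in F8 of gradient B, at 683 CPM.

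The remaining 6 of the 12 leading genes were of mixed function. AGPAT5, an acyltransferase of phospholipid synthesis, had 17.2 and 6.96 CPM in monosomes and 253 and 272 CPM in polysomes, and LTC4S, the leukotriene C4 synthase, had 6.64 and 19.4 CPM in monosomes against 169 and 209 CPM. Their log2 differences were 4.44 ± 0.65 and 3.86 ± 0.72 (adjusted p = 0.0371 and 0.0462). The membrane protein TMEM176B went from 5.04 and 10.2 to 218 and 288 CPM, with intermediate pools that differed widely (42.4 and 288 CPM) and an adjusted p of 0.0491, just inside the threshold. The cold-inducible RNA-binding protein RBM3 (7.08 and 8.84 against 129.6 and 107 CPM), the isochorismatase-domain gene ISOC2 (11.2 and 11.6 against 178 and 153 CPM) and UQCR11, a small subunit of respiratory complex III (16.6 and 19.1 against 318 and 152 CPM), completed the 12. Their log2 differences were 3.89, 3.86 and 3.72.

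**Figure D2:**
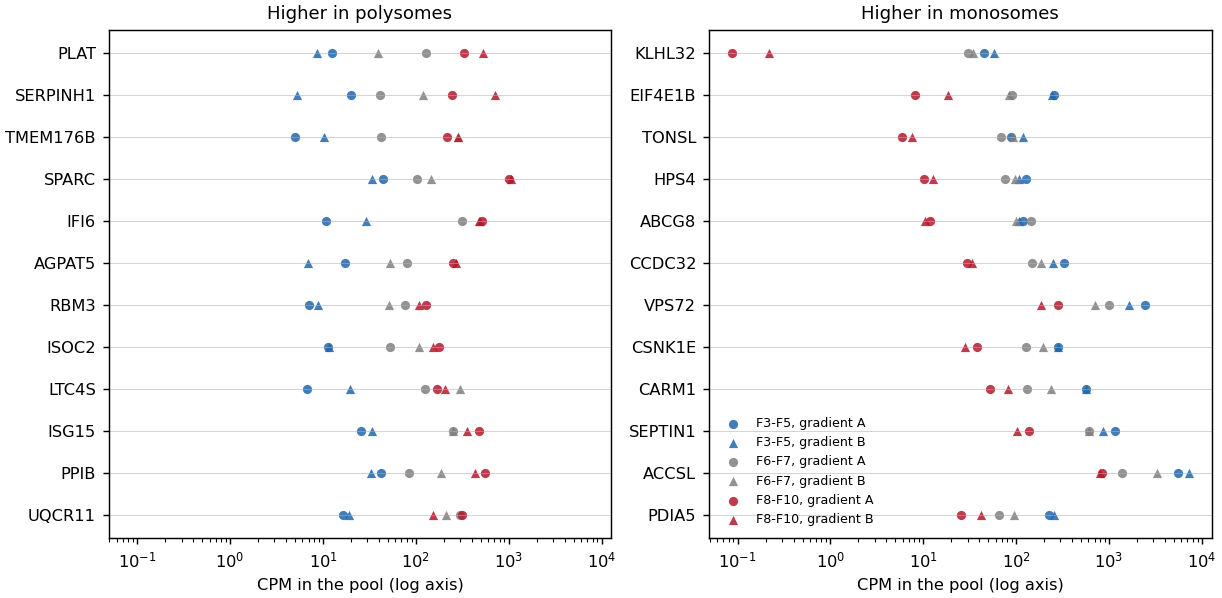
CPM of the 12 leading genes in each direction (log axis) in the pools F3-F5 (blue), F6-F7 (grey) and F8-F10 (red) of gradients A (circles) and B (triangles). For each gene the red and the blue points do not overlap, and for most genes the grey points lie between them.

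Leading genes of monosomes included a cap-binding protein and regulators of chromatin. EIF4E1B, a cap-binding protein of oocytes and early embryos, had 253 and 241 CPM in monosomes and 8.04 and 18.3 CPM in polysomes, 18.8-fold lower (log2 difference -4.23 ± 0.60, adjusted p = 0.0371). Its level fell from 350.1 and 439 CPM in F3 to 0.275 and 26.5 CPM in F10. CARM1, an arginine methyltransferase that acts on histone H3, had 559 and 563 CPM in monosomes and 52.5 and 80.8 CPM in polysomes (log2 difference -3.07 ± 0.45, adjusted p = 0.0371). VPS72, a subunit of complexes that load the histone variant H2A.Z, had 2431 and 1651 CPM against 282 and 185 CPM (log2 difference -3.13 ± 0.41, adjusted p = 0.0371). For all 3 genes the polysome pools lay far below the monosome pools in both gradients.

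TONSL, a scaffold for repair of stalled replication forks, had 88.7 and 119 CPM in monosomes and 5.96 and 7.64 CPM in polysomes, with intermediate pools of 68.8 and 92.1 CPM that stayed near the monosome level (log2 difference -3.93 ± 0.68, adjusted p = 0.0409). ABCG8, a sterol half-transporter, and HPS4, a factor of lysosome-related organelles, also had intermediate pools nearer to monosomes than to polysomes. These pools sum F6 and F7, which were not alike. TONSL had 118 and 152 CPM in F6 but 7.63 and 39.3 CPM in F7. HPS4 had 137 CPM in F6 and 0.136 CPM in F7 of gradient A, but 28.2 and 162 CPM in gradient B. ABCG8 was at 119.8 and 108 CPM in monosomes, 145 and 98.95 CPM in the intermediate pools and 11.8 and 10.4 CPM in polysomes, and HPS4 was at 129 and 108 CPM, 75.6 and 96.2 CPM and 10.3 and 12.8 CPM. The kelch-like gene KLHL32 had 44.5 and 57.1 CPM in monosomes and 0.0864 and 0.218 CPM in polysomes, which were 2 and 8 counts, so its log2 difference of -8.31 ± 1.41 is set by very few counts. The remaining 5 of the 12 were CCDC32, the casein kinase CSNK1E, the filament GTPase SEPTIN1, ACCSL and the disulfide isomerase PDIA5, with log2 differences of -3.20 to -2.86 and adjusted p-values of 0.0371 to 0.0444. ACCSL fell along the gradient from 6176 and 8333 CPM in F3 to 204 and 298 CPM in F10.

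**Figure D3:**
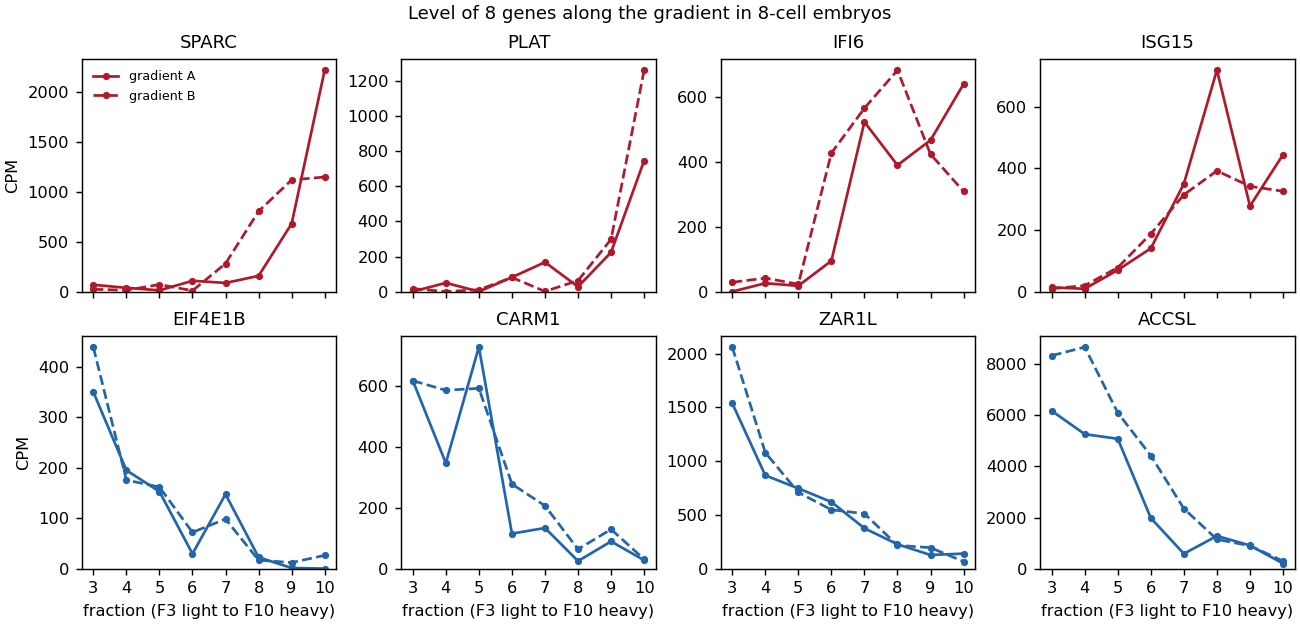
CPM (vertical axis, from 0) of 8 genes in fractions F3 to F10 of gradient A (solid) and gradient B (dashed), with genes higher in polysomes in red and genes higher in monosomes in blue. SPARC and PLAT are highest in F10, IFI6 and ISG15 climb between F5 and F7, and the 4 blue genes fall from F3, F4 or F5 towards F10.

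The mean level of the intermediate pools lay between monosomes and polysomes for 119 of the 128 genes of polysomes and for 84 of the 88 genes of monosomes. It was nearer to the monosome level for 23 of the 128 genes and for 69 of the 88. The median level of the 128 genes was 104 CPM in monosomes, 337 CPM in the intermediate pools and 569 CPM in polysomes, and that of the 88 genes was 870.1 CPM, 471 CPM and 188 CPM. Weighting each fraction number from F3 to F10 by the CPM of a gene gave a median mean fraction of 7.77 for the 128 genes and 5.18 for the 88 genes, against 6.36 over all genes tested. Among the 128 genes, the highest fraction was F10 for 47 in gradient A and 46 in gradient B, F8 for 41 and 28, and F6 or F7 for 12 and 22. Genes of monosomes had their highest level in F3 to F5 in 82 and 83 of 88 cases. These fractions were part of the call, so the profile describes the called genes and does not test them. As a share of all counts, the 128 genes held 2.06 and 1.71% of monosome pools and 10.5 and 10.8% of polysome pools, and the 88 genes 14.2 and 16.8% and 3.78 and 3.22%.

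Transcripts of cytosolic ribosomal proteins, the protein part of the ribosome itself, were placed towards polysomes as a group. Of 84 such genes, 82 passed the filter, and all 82 of these had a log2 difference above 0, against 51.4% of all genes. The edgeR test called 31 of the 82 higher in polysomes and 0 higher in monosomes, against 1.03% and 0.709% of all genes. With the gradient as a replicate block 49 of the 82 were called. The median log2 difference was 2.13 (1.86 in gradient A and 2.37 in gradient B, each on log2(CPM + 1)), against 0.07 over all genes. In 79 of the 82 genes both polysome pools lay above both monosome pools, against 27.7% of all genes. RPL26 had 17.1 and 20.7 CPM in monosomes and 228 and 162 CPM in polysomes (log2 difference 3.37 ± 0.63, adjusted p = 0.0462), and RPL38 had 35.4 and 28.1 CPM against 379.6 and 227 CPM (3.26 ± 0.50, adjusted p = 0.0379). At the other end RPSA had 1341 and 1199.8 CPM in monosomes and 1311 and 1488 CPM in polysomes, which overlapped (log2 difference 0.14 ± 0.29, adjusted p = 0.889), and RPLP0 differed by 0.44 ± 0.30 (adjusted p = 0.535). Reads from processed pseudogenes of these genes could have been counted with them, and this was not tested.

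The share of counts held by ribosomal protein transcripts rose along both gradients. It was 2.18% in F3, 1.84% in F4 and 2.39% in F5 of gradient A, then 4.09% in F6, 5.29% in F7, 6.93% in F8, 5.56% in F9 and 5.48% in F10. In gradient B it was 1.39, 1.39 and 1.68% in F3 to F5, 3.19 and 4.61% in F6 and F7, and 6.05, 5.72 and 7.30% in F8 to F10. The step between F5 and F8 was shared, and no library of F8 to F10 overlapped a library of F3 to F5.

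Nuclear genes of oxidative phosphorylation, which encode the respiratory chain and the ATP synthase, had a similar median. Of 85 genes 83 were tested, 15 were called higher in polysomes and 0 higher in monosomes, and 78 had a difference above 0. Among all genes these shares were 1.03%, 0.709% and 51.4%. With the gradient as a replicate block 29 of the 83 were called. The median log2 difference was 2.01, and it was 1.84 and 1.99 within gradients A and B. The called genes came from complex I (NDUFA4, NDUFA11, NDUFA13, NDUFB2, NDUFB11), complex III and its electron carrier (UQCR10, UQCR11, CYC1, CYCS), complex IV (COX6A1, COX6B1, COX7A2, COX8A) and the ATP synthase (ATP5MC1, ATP5MG). UQCR11, given above, had the largest difference of the called genes, and NDUFA5 had 6.55 and 3.80 CPM in monosomes and 61.6 and 49.9 CPM in polysomes without passing the test (adjusted p = 0.181). NDUFAB1, the mitochondrial acyl carrier protein, and SDHA, the catalytic subunit of complex II, had log2 differences of -0.65 ± 0.33 and -0.59 ± 0.41 (adjusted p = 0.384 and 0.541). The whole list held 0.825 and 0.722% of the counts in monosomes, 2.02 and 1.86% in the intermediate pools and 2.80 and 2.67% in polysomes.

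Mitochondrial ribosomal proteins, which translate the mitochondrial genome and are themselves made in the cytosol, had a smaller median log2 difference of 1.33. Of 77 tested, 4 were called higher in polysomes (MRPL23, MRPS25, MRPL28 and MRPS24), 0 higher in monosomes, and 70 had a difference above 0. Among all genes these shares were 1.03%, 0.709% and 51.4%. MRPL23 had 35.6 and 24.6 CPM in monosomes and 226 and 229.6 CPM in polysomes (log2 difference 2.92 ± 0.46, adjusted p = 0.0382). MRPL37 and MRPL4 lay the other way, at 3819 and 3033 against 1618 and 1468 CPM and 701 and 459 against 232 and 281 CPM, with adjusted p-values of 0.104 and 0.141, and MRPL37 passed with the gradient as a replicate block (adjusted p = 0.0491).

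The 13 transcripts of the mitochondrial genome are translated by ribosomes inside the organelle, and 0 of them were called by the edgeR test (1 higher in polysomes and 0 higher in monosomes at an unadjusted p below 0.05, 1 and 0 called by the likelihood ratio test, 1 and 0 by DESeq2, and 0 and 0 with the replicate block). Their median log2 difference was 0.47, but it was 0.36 in gradient A and 1.28 in gradient B. Over all genes 1.03% were called higher in polysomes and 0.709% higher in monosomes, so 0 calls among 13 say little. ND5 had 580.4 and 342 CPM in monosomes and 905 and 3463 CPM in polysomes (log2 difference 2.24 ± 0.70, adjusted p = 0.161). Together the 13 transcripts held 1.59% of the counts in F3, 0.745% in F5 and 2.76% in F10 of gradient A, and 0.557, 0.418 and 1.76% in gradient B, so F10 was the highest of F3 to F10 in both. F1, which is not part of the comparison, held 4.24 and 1.82%.

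**Figure D4:**
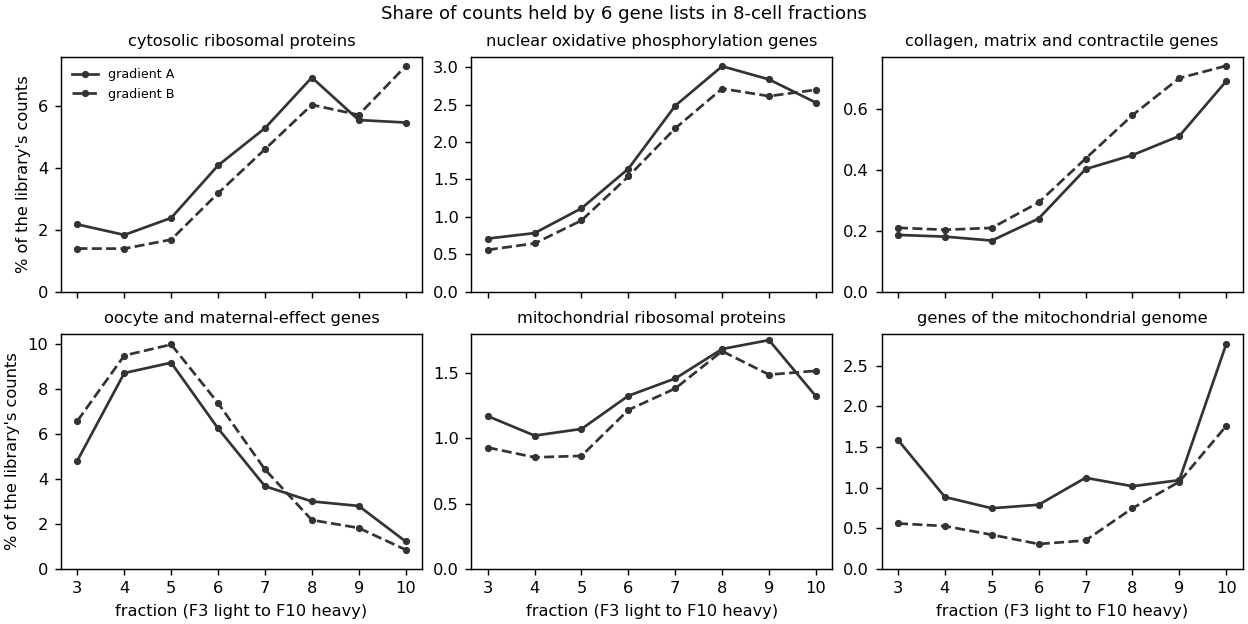
Percent of a library's counts (vertical axes, from 0, with their own scale) held by 6 gene lists in fractions F3 to F10 of gradient A (solid) and gradient B (dashed). The shares of ribosomal proteins and nuclear oxidative phosphorylation genes rise between F5 and F8 in both gradients, and the share of oocyte genes, most of it NLRP8, peaks in F5 and falls to its lowest value in F10.

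Other parts of the machinery of protein synthesis had medians above that of all genes, with few single genes past the threshold. Among 50 translation factors the median log2 difference was 1.21, and EIF1AX, an initiation factor that places the ribosome on the start codon, had 34.2 and 19.98 CPM in monosomes and 208 and 270.0 CPM in polysomes (log2 difference 3.14 ± 0.57, adjusted p = 0.0444). EIF4E1B, described above, was the single factor called higher in monosomes, and with the replicate block 3 factors were called higher in polysomes and 2 in monosomes. Without the block the calls were 2% of the list in each direction, beside 1.03% and 0.709% of all genes. EIF1, also a factor of start codon choice, had 5915 and 3757 CPM against 1942 and 1152 CPM (adjusted p = 0.116, and 0.0156 with the replicate block). EIF2S2, a subunit of the factor that brings the initiator tRNA, had 11.7 and 11.5 CPM against 128 and 55.4 CPM (adjusted p = 0.138).

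The 42 genes of the translocon and of glycosylation in the endoplasmic reticulum had a median log2 difference of 1.63, with 38 above 0, against 51.4% of all genes. The 2 called higher in polysomes, against 1.03% of all genes, were SSR4 (72.2 and 67.2 against 507 and 545 CPM) and DDOST (176 and 136 against 736 and 639 CPM). SSR4 is a subunit of the translocon-associated complex and DDOST a subunit of the oligosaccharyltransferase. STT3B, a catalytic subunit of the latter, had 168 and 162 CPM against 80.2 and 90.03 CPM (log2 difference -0.95 ± 0.38, adjusted p = 0.273). For the 38 proteasome subunits the median was 1.501, and the core subunits PSMB4 (108 and 117 against 561 and 865 CPM) and PSMB6 (154 and 137 against 729.9 and 844 CPM) were called higher in polysomes. That is 5.26% of the list, against 1.03% of all genes. The regulatory subunit PSMD4 had 284 and 295 CPM against 94.4 and 105 CPM (adjusted p = 0.142). With the replicate block, 5 genes of the translocon list and 6 of the proteasome were called.

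Nucleolar genes of ribosome assembly (54 tested, median log2 difference 1.03) had 1 call, NOP56, a core protein of box C/D particles (232 and 213 against 642 and 766 CPM, adjusted p = 0.0498). Of 66 spliceosome genes (median 0.86), SF3B5 was called higher in polysomes, while PRPF19, a ubiquitin ligase of the spliceosome (675 and 600.2 against 112 and 119 CPM), and U2AF2, which binds the polypyrimidine tract (1215 and 916 against 190.5 and 210.0 CPM), were called higher in monosomes. The calls were 1.85% of the nucleolar list in polysomes, and 1.52% and 3.03% of the spliceosome list in polysomes and monosomes. Over all genes the shares were 1.03% and 0.709%. With the replicate block, 3 nucleolar genes were called higher in polysomes, and 5 spliceosome genes in polysomes and 2 in monosomes.

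Kinetochore and spindle genes (67 tested) had a median log2 difference of 1.04 and 0 calls in the edgeR test (11 higher in polysomes and 5 higher in monosomes at an unadjusted p below 0.05, 4 and 3 called by the likelihood ratio test, 8 and 5 by DESeq2, and 2 and 3 with the replicate block). Chaperones (70 tested) had a median of 0.53 and 0 calls (9 higher in polysomes and 3 higher in monosomes at an unadjusted p below 0.05, 3 and 0 called by the likelihood ratio test, 5 and 3 by DESeq2, and 2 and 1 with the replicate block). Over all genes the edgeR test called 1.03% higher in polysomes and 0.709% higher in monosomes. AURKC, the Aurora kinase of meiosis, had 5343 and 3057 CPM in monosomes and 1625 and 799.5 CPM in polysomes (adjusted p = 0.0941, and 0.0176 with the replicate block). NUF2, an outer kinetochore protein, had 4.82 and 0.0638 CPM against 76.6 and 36.8 CPM (adjusted p = 0.413).

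Lists of matrix, lysosomal and proton pump genes held 2 or 3 calls each, against 1.03% of all genes in polysomes and 0.709% in monosomes. Of 76 collagen, matrix and contractile genes 46 were tested (median log2 difference 1.58), and SPARC, SERPINH1 and the myosin light chain MYL6 were called higher in polysomes. LUM, the proteoglycan lumican, had 0.0315 and 0.702 CPM in monosomes and 141 and 231 CPM in polysomes, with 0 and 15.02 CPM in the intermediate pools, and did not pass (adjusted p = 0.133, and 0.0408 with the replicate block). CTSV, a lysosomal cysteine protease, was higher in polysomes (54.2 and 46.4 against 628 and 466 CPM, log2 difference 3.44 ± 0.40, adjusted p = 0.0371), and its relative CTSB was higher in monosomes (4364 and 3755 against 1310.0 and 831 CPM, -1.92 ± 0.35, adjusted p = 0.0438). Among 51 lysosomal genes the median was 0.90 (-0.16 with the replicate block), and these were the 2 calls, with 2 in polysomes and 1 in monosomes under the block. Of 22 subunits of the vacuolar ATPase (median 0.38), ATP6V1G1 and ATP6V0B were called higher in polysomes. The membrane subunit ATP6V0B of the vacuolar ATPase had 152 and 157 CPM in monosomes and 794 and 1109.7 CPM in polysomes (log2 difference 2.63 ± 0.37, adjusted p = 0.0371).

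Oocyte and maternal-effect genes lay towards monosomes. Of 33 tested, 7 were called higher in monosomes and 0 higher in polysomes, 29 had a log2 difference below 0 and the median was -1.56 (-1.27 in gradient A and -1.85 in gradient B). Over all genes 0.709% were called higher in monosomes and 1.03% higher in polysomes, and 6027 of 12419 lay below 0. With the gradient as a replicate block 13 of the 33 were called higher in monosomes, against 244 of all 12419 genes. In 26 of the 33 both polysome pools lay below both monosome pools, against 28.6% of all genes.

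ZAR1L, a relative of the RNA-binding zygote arrest factor, had 1133 and 1197 CPM in monosomes, 530.3 and 521 CPM in the intermediate pools and 169 and 165 CPM in polysomes (log2 difference -2.80 ± 0.31, adjusted p = 0.0371). WEE2, the oocyte kinase that inhibits CDK1, had 251 and 332 CPM in monosomes and 41.5 and 53.1 CPM in polysomes (-2.62 ± 0.45, adjusted p = 0.0406). BMP15, a growth factor secreted by the oocyte, had 3152 and 4019.9 CPM against 1042 and 751 CPM, and its level fell from 3994 and 4150.0 CPM in F3 to 631 and 319 CPM in F10. The groups did not overlap in any of these genes, and the 2 gradients of a group were close for ZAR1L.

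PADI6, a component of the cytoplasmic lattices (1895 and 1729.5 against 570.2 and 391 CPM), KPNA7, an importin of oocytes (2575 and 2385 against 691 and 656 CPM), and UHRF1, which brings DNMT1 to replicated DNA (837 and 1039.7 against 278 and 231 CPM), were the further called genes, with log2 differences of -1.91 ± 0.33, -1.88 ± 0.33 and -1.88 ± 0.32 (adjusted p = 0.0406, 0.0412 and 0.0406). NLRP8, an NLR gene of oocytes, had 52443 and 65998 CPM in monosomes and 14183 and 9247 CPM in polysomes (log2 difference -2.34 ± 0.41, adjusted p = 0.0423), and held most of the counts of the list. The list held 6.87 and 8.73% of the counts in monosomes and 2.38 and 1.63% in polysomes, and without NLRP8 2.05 and 2.22% and 0.924 and 0.654%. Within F3 to F10 the share without NLRP8 was 2.24 and 2.45% in F3, 1.80 and 2.07% in F5 and 0.817 and 0.445% in F10, so the peak of the whole list in F5 was that of NLRP8. The maintenance methyltransferase DNMT1 and the corepressor TRIM28 had log2 differences of 1.17 ± 0.71 and 0.63 ± 0.45 (adjusted p = 0.475 and 0.569), and ZP3, a protein of the zona pellucida, had 554 and 487 CPM in monosomes and 497 and 134 CPM in polysomes, which overlapped.

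Genes of genome activation and pluripotency had 0 calls among 24 tested in the edgeR test (1 higher in polysomes and 1 higher in monosomes at an unadjusted p below 0.05, 0 and 0 called by the likelihood ratio test, 1 and 0 by DESeq2, and 0 and 0 with the replicate block) and a median log2 difference of -0.33, with 11 above 0 and 13 below. Over all genes 1.03% were called higher in polysomes, 0.709% higher in monosomes, and 51.4% lay above 0. With such shares 0 calls among 24 genes say little about the list. NANOG, a pluripotency factor, had 46.3 and 12.6 CPM in monosomes and 169 and 120.4 CPM in polysomes, which did not overlap, with a log2 difference of 2.30 ± 0.81 (adjusted p = 0.218). KLF17 had overlapping pools (494 and 696 against 414 and 620.1 CPM, log2 difference -0.20 ± 0.39, adjusted p = 0.877), and MYC had 15.1 and 11.6 CPM against 24.8 and 40.8 CPM (adjusted p = 0.685). The early embryonic genes DPPA2 and DPPA4 had 7.94 and 8.01 against 65.3 and 35.7 CPM and 2.74 and 17.5 against 47.98 and 63.3 CPM, and the adjusted p-values were 0.317 and 0.459.

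Chromatin and transcription genes lay on the monosome side of the median. Writers and erasers of histone lysine marks had a median log2 difference of -0.74, with 43 of 63 below 0 and 0 calls in the edgeR test (2 higher in polysomes and 6 higher in monosomes at an unadjusted p below 0.05, 0 and 2 called by the likelihood ratio test, 1 and 4 by DESeq2, and 0 and 1 with the replicate block). KAT5, the acetyltransferase TIP60, had 189 and 226 CPM in monosomes and 18.5 and 36.4 CPM in polysomes, just outside the threshold (log2 difference -2.92 ± 0.58, adjusted p = 0.0533, and 0.0238 with the replicate block). Among 198 ZNF genes, named for their zinc fingers, the median was -0.65, 122 lay below 0, and ZNF18 (482 and 473 against 66.3 and 67.4 CPM), ZNF76 (353 and 402 against 59.7 and 77.4 CPM) and ZNF574 (5162 and 5517 against 1179.7 and 1458 CPM) were called higher in monosomes. That is 1.52% of the list. For both lists, the shares over all genes were 1.03% called in polysomes, 0.709% called in monosomes and 51.4% above 0. Of 271 ZNF genes 73 did not pass the filter on low counts.

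Genes of deadenylation, uridylation and decapping, which remove stored transcripts, had a median log2 difference of 0.49 and 0 calls among 44 in the edgeR test (2 higher in polysomes and 3 higher in monosomes at an unadjusted p below 0.05, 1 and 1 called by the likelihood ratio test, 1 and 2 by DESeq2, and 0 and 1 with the replicate block). The edgeR test called 1.03% and 0.709% of all genes, so 0 calls in a list of this size say little. TUT7, an enzyme that adds uridine to mRNA ends, had 34.2 and 17.999 CPM in monosomes and 140.0 and 184 CPM in polysomes, without overlap (log2 difference 2.63 ± 0.67, adjusted p = 0.0941), while CNOT3, a subunit of the CCR4-NOT complex, had 86.2 and 95.004 CPM against 18.2 and 24.3 CPM (adjusted p = 0.217). The 99 RAB and RAS family GTPases had a median of -0.17, with RAB17 and the nuclear transport GTPase RAN (168 and 119 against 564 and 699 CPM) called higher in polysomes and RAB15 (147 and 183 against 21.6 and 30.5 CPM) higher in monosomes. That is 2.02% and 1.01% of the list, beside 1.03% and 0.709% of all genes. With the replicate block the calls were 3 and 2. RAB17, a GTPase of epithelial trafficking, had 0 and 1 count in the monosome pools against 582 and 1524 counts in the polysome pools (25.2 and 41.6 CPM). Its ratio of 2223 rests on that single count, with an exact 95% interval of 399 to 87853 that covers counting error only. Along the gradient, F8, F9 and F10 had 77.0, 0 and 0.137 CPM of RAB17 in gradient A and 85.8, 38.6 and 0 CPM in gradient B. F6 and F7 had 26.4 and 26.6 CPM in gradient A and 37.4 and 28.6 CPM in gradient B, so its level was not carried into F10.

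Of the genes that the study names in its text, 27 were tested, and PLAT, SERPINH1, ISG15 and RAB17 were called higher in polysomes and UHRF1 in monosomes. The study chose these genes on these samples, so their count, beside 1.03% and 0.709% of all genes, is no independent evidence. Of the other 22, NANOG, KLF17, MYC, ZP3 and TUT7 are described above. ORM1, an acute-phase glycoprotein, had 0 and 1 count in monosomes and 9.77 and 18.7 CPM in polysomes (adjusted p = 0.247), and TAGLN, an actin-binding protein of smooth muscle, had 0 and 14.8 CPM against 114 and 249 CPM (adjusted p = 0.312). SMIM7, CST6 and POLD4 had differences of 1.503, 2.54 and 0.89 and MMAB and LRWD1 of 0.63 and 0.03. SUN1, DAG1, KAT2A, MCM4, TUBG1, WFS1, SUV39H1, XAB2, TAB1 and CARS2 had differences between -1.80 and -0.41, with adjusted p-values of 0.117 or more.

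The levels of markers of cells that surround the oocyte differed widely. Of 16 cumulus and granulosa genes 10 were tested, with a median log2 difference of 0.23 that was -0.45 in gradient A and 1.14 in gradient B. Of the 10, 5 lay above 0 and 5 below, and 1 was called, against 1.03% and 0.709% of all genes in polysomes and monosomes. The whole list held 0.0350 and 0.0482% of the counts in monosomes and 0.0279 and 0.0527% in polysomes. STAR, the cholesterol carrier of steroid synthesis, was called higher in monosomes (210.2 and 335 against 50.2 and 42.9 CPM, log2 difference -2.55 ± 0.45, adjusted p = 0.0426). STAR held most of the summed level of the 8 markers. The highest level in any of the 6 pools was 38.6 CPM for AMH, 13.9 CPM for PTX3, 11.6 CPM for HAS2 and 7.83 CPM for TNFAIP6. It was 1.07 CPM for CYP19A1, 0.682 CPM for FSHR and 0.638 CPM for FOXL2. Sperm markers had 4 tested genes, a median log2 difference of 0.62 (-0.66 with the replicate block) and 0 calls in the edgeR test, with 0 at an unadjusted p below 0.05 and 0 by DESeq2, and ODF1 was at 0 in all pools. The part of these cells in the results was not tested.

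To ask where the 8-cell stage differs from the stages around it, the difference between polysomes and monosomes was compared with that in 2-cell embryos and in blastocysts, which share no library with it. Cytosolic ribosomal proteins had a median log2 difference of 0.46 at the 2-cell stage, 2.04 at the 8-cell stage and -0.08 in blastocysts, all in a fit of 18 pools. Over all genes the medians were -0.03, 0 and 0.04. Oxidative phosphorylation genes had 0.52, 1.91 and 0.57, and oocyte genes 0.14, -1.73 and -2.81. Transcripts of the mitochondrial genome passed from 2.77 through 0.37 to -2.55.

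In the edgeR test of the difference between stages, 0 of 14474 genes (0%) were called between the 8-cell and the 2-cell stage, where 1990 genes had an unadjusted p-value below 0.05 and the smallest adjusted p was 0.0510. Most changes put into simulated data were not called by this test, so 0 calls do not show that the stages were alike. With the gradient as a replicate block 31 genes were higher and 31 lower at the 8-cell stage, and the likelihood ratio test of edgeR and DESeq2 made 337 and 286 calls and 530 and 565 calls. Without gradient A of the 8-cell stage 3 genes were higher and 4 lower, and without gradient B 261 and 422. Between the 8-cell stage and blastocysts, 21 genes had a higher difference at the 8-cell stage (0.145%) and 89 a lower one (0.615%). With the replicate block these were 66 and 95, and without gradient A or B of the 8-cell stage they were 15 and 33 or 249 and 622. Groups with 3 counts or fewer were involved in 5 of the 21 genes and 42 of the 89.

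Of the 21 genes, 10 were also called higher in 8-cell polysomes, among them the ribosomal proteins RPL38, RPL34 and RPS25. The test between stages used the same 8-cell pools as the 8-cell calls, so this overlap is partly built in and is no separate support. RPL38 had 35.8 and 28.8 CPM in 8-cell monosomes and 361 and 214 CPM in polysomes, while blastocysts had 846 and 905 CPM in monosomes and 446 and 649 CPM in polysomes, a difference between stages of 3.83 ± 0.67 on the log2 scale (adjusted p = 0.0271). For RPL34 and RPS25 it was 3.03 ± 0.58 and 2.85 ± 0.61 (adjusted p = 0.0352 and 0.0434). AGPAT5 differed by 3.85 ± 0.76 (adjusted p = 0.0378). ND5 of the mitochondrial genome had 13567 and 19104 CPM in blastocyst monosomes and 2005 and 3204 CPM in polysomes, and differed by 4.79 ± 0.79 (adjusted p = 0.0211).

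Of the 89 genes with a lower difference, 15 were also called higher in 8-cell monosomes, among them the leading genes PDIA5, TONSL and CCDC32. This overlap is likewise partly built in. PDIA5 had 231 and 264 CPM in 8-cell monosomes and 24.1 and 39.2 CPM in polysomes, while blastocysts had 4.21 and 2.32 CPM in monosomes and 12.9 and 23.8 CPM in polysomes, the reverse order (-5.46 ± 0.70, adjusted p = 0.00441). TONSL differed by -4.89 ± 0.93 and CCDC32 by -4.14 ± 0.75 (adjusted p = 0.0352 and 0.0288), and CTSB by -2.42 ± 0.45 (adjusted p = 0.0314). Seen from the 8-cell calls, 100 of the 128 genes of polysomes had a log2 difference above 0 in 2-cell embryos (median 0.79) and 89 in blastocysts (median 0.41). Of the 88 genes of monosomes, 57 and 63 had a difference below 0 (medians -0.19 and -0.96). For comparison, 12201 genes had no call at the 8-cell stage. In 2-cell embryos 5883 of these lay above 0 and 6192 below, and in blastocysts 6413 above and 5121 below.

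**Figure D5:**
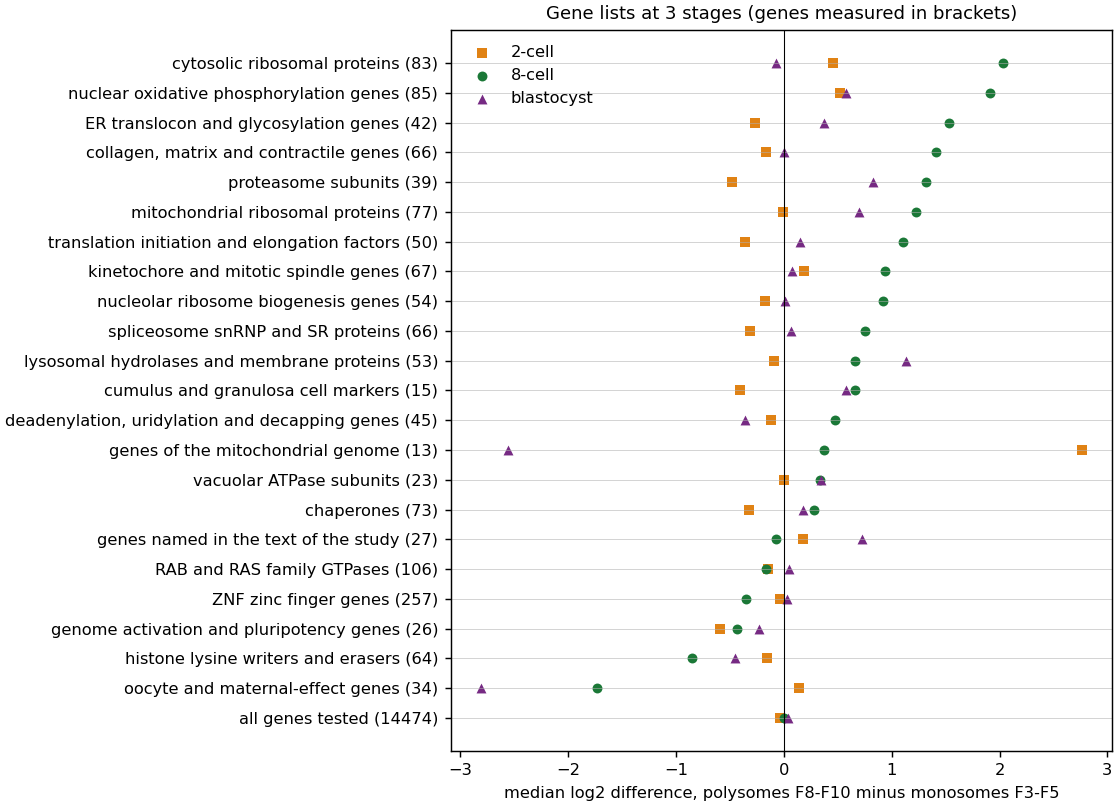
Median log2 difference between polysomes (F8-F10) and monosomes (F3-F5) for each gene list with 10 or more tested genes in 2-cell embryos (orange squares), 8-cell embryos (green circles) and blastocysts (purple triangles), with the number of genes in brackets. Ribosomal proteins and oxidative phosphorylation genes lie furthest to the right at the 8-cell stage, oocyte genes lie to the left at the 8-cell and blastocyst stages, and the medians carry no test.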

How the data were processed

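The series holds 138 RNA-seq libraries, and the 8-cell fractions F3 to F10 of gradients A and B were analysed here, with those of 2-cell embryos and blastocysts for comparison. The authors amplified RNA of each fraction with a Smart-seq v4 kit and deposited expected counts per gene symbol, estimated with Salmon, whose version is not given in the sources used here. The labels name UMD3.1 and the methods ARS-UCD1.2 as the build, so no coordinates are given. The counts had no normalization, 11.7% were not whole numbers, and 0 columns were left unmapped.

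Counts were summed within a gradient and rounded. In R 4.3.3 with edgeR 4.0.16, genes passed filterByExpr, pools were scaled with TMM factors, and polysomes were contrasted with monosomes by the quasi-likelihood test in a fit of 6 pools, with intermediate pools sharing the spread. Stages were compared in a fit of 18 pools. Tests were two-sided, with Benjamini-Hochberg adjustment at 0.05. Alternatives used the likelihood ratio test, DESeq2 1.42.0, other scalings, filters and pools, a block, thinning, and leaving out replicates or fractions. Both tests were tested on simulated data, where most of the changes put in were not called. Profiles are CPM with TMM factors of single libraries. Figures used matplotlib 3.10.9.

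The letters A and B were taken to mark one gradient each, whose fractions share a lysate, so that pools of a letter are paired. The correlation of deviations from group means was 0.0577 between monosomes and polysomes, 0.0809 between monosomes and intermediate pools, and 0.0429 between intermediate pools and polysomes. Named genes were the 12 with the largest called difference in each direction with at least 50 CPM in the higher group, the 2 highest and 2 lowest of each list with at least 20 CPM, of which a selection is described, the genes named by the study, and the 5 with the largest called difference between stages in each direction among genes with at least 50 CPM in the higher group. Further called members of lists are named for their call. The genes, lists and the comparison were chosen with earlier results of these data known. Sequences were not used here, and 4287 of 16706 genes were not tested. A list of small nuclear and nucleolar RNAs had 0 members. Intervals and floors of 3 counts cover counting error only.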

Additional observations from a re-analysis of the deposited data

Results flagged for a closer look

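The difference between polysomes and monosomes itself differed between 8-cell embryos and blastocysts for the 10 genes named by the rule, in the edgeR quasi-likelihood test of the interaction. The fitted values below depend on the small count that edgeR adds to pools at 0 and are no bounds.

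Higher at the 8-cell stage were PPA2, NUPR1, PUS10, PAQR7 and AK3. PPA2, a mitochondrial pyrophosphatase, had 0 and 0 CPM in monosomes and 19.2 and 21.6 CPM in polysomes at the 8-cell stage, and 32.8 and 49.9 CPM against 48.7 and 77.9 CPM in blastocysts (log2 difference between stages 11.4, adjusted p = 0.0432). Its 8-cell polysome level was at least 459-fold higher than a floor of 3 counts over both monosome pools. NUPR1, a stress-induced nuclear protein, had 0 and 0 CPM in monosomes and 5.87 and 1.31 CPM in polysomes at the 8-cell stage, and 77.7 and 60.3 CPM against 33.3 and 52.9 CPM in blastocysts (10.2, adjusted p = 0.0388). Its 8-cell polysome level came from a single library per gradient, F9 of gradient A (15.6 CPM) and F10 of gradient B (4.49 CPM). PUS10, a pseudouridine synthase, had 0.0955 and 0.0653 CPM in monosomes and 88.7 and 13.998 CPM in polysomes at the 8-cell stage, and 21.4 and 8.50 CPM against 8.30 and 14.7 CPM in blastocysts (9.61, adjusted p = 0.0388). AK3, an adenylate kinase of mitochondria, had 0.0318 and 0.196 CPM in monosomes and 23.1 and 12.99 CPM in polysomes at the 8-cell stage, and 62.1 and 52.999 CPM against 64.9 and 85.4 CPM in blastocysts (6.87, adjusted p = 0.0388). PAQR7, a membrane progestin receptor, had 273 and 323 CPM in monosomes and 116 and 63.8 CPM in polysomes at the 8-cell stage, and 15.3 and 3.79 CPM against 0 and 0 CPM in blastocysts (9.21, adjusted p = 0.00996). In the first 4 genes 8-cell monosomes were near 0, while in PAQR7 blastocyst polysomes were at 0. With the gradient as a replicate block, PPA2, NUPR1, PUS10 and AK3 no longer passed (adjusted p = 0.0728, 0.0515, 0.0661 and 0.0629).

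Lower at the 8-cell stage were SLC36A1, RASL11A, CDX1, COQ8B and NAGLU, in each of which both blastocyst monosome pools were at 0. SLC36A1, a lysosomal amino acid transporter, had 126 and 130.2 CPM in monosomes and 0 and 11.6 CPM in polysomes at the 8-cell stage, and 0 and 0 CPM against 9.99 and 3.39 CPM in blastocysts (-14.9, adjusted p = 0.0434, and 0.0728 with the replicate block). RASL11A, a small GTPase, had 113 and 129 CPM in monosomes and 51.7 and 36.4 CPM in polysomes at the 8-cell stage, and 0 and 0 CPM against 16.3 and 14.8 CPM in blastocysts (-13.1, adjusted p = 9.02e-05). CDX1, a caudal-type homeobox factor, had 83.5 and 72.5 CPM in monosomes and 10.1 and 14.6 CPM in polysomes at the 8-cell stage, and 0 and 0 CPM against 4.82 and 8.43 CPM in blastocysts (-13.1, adjusted p = 0.0187). COQ8B, a kinase of coenzyme Q synthesis, had 96.5 and 58.2 CPM in monosomes and 62.1 and 62.8 CPM in polysomes at the 8-cell stage, and 0 and 0 CPM against 23.3 and 9.08 CPM in blastocysts (-12.01, adjusted p = 0.00441). NAGLU, a lysosomal glucosaminidase, had 78.4 and 97.3 CPM in monosomes and 48.7 and 21.6 CPM in polysomes at the 8-cell stage, and 0 and 0 CPM against 4.43 and 7.90 CPM in blastocysts (-11.6, adjusted p = 0.0177).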

How the results depend on the processing

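With the gradient as a replicate block, 269 genes were higher in polysomes and 244 in monosomes, and the block left every one of the 216 calls in place. Most lists whose count moved are given in the report. In addition, calls in polysomes and monosomes under the block were 5 and 1 for mitochondrial ribosomal proteins, 3 and 0 for vacuolar ATPase subunits, and 4 and 0 for collagen, matrix and contractile genes. Against 2-cell embryos the block gave 31 genes with a higher and 31 with a lower difference, and against blastocysts 66 and 95. Calls higher in polysomes and in monosomes were 402 and 347 with the likelihood ratio test, 814 and 834 with DESeq2, 346 and 287 with no filter, 571 and 472 with 36 pools of all stages, 505 and 452 with 12 fraction libraries, and 195 and 87 with library size alone, which moved the median of all genes from 0.07 to 0.20. They were 0 and 0 with only the 4 pools, 0 and 0 without F7, 33 and 13 without F10, and 12 and 14 without F3, the last 3 chosen after seeing the data. Leaving out a gradient gave 82 to 431 and 54 to 832. The 216 genes kept their sign wherever they were tested, and 160 of them were called again with DESeq2 size factors, 182 with fractions weighted equally, 185 with F9 and F10 against F3 and F4, and 214 in thinned pools.

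Differences from 2-cell embryos, with 0 and 0 calls, were 337 and 286 with the likelihood ratio test, 530 and 565 with DESeq2, 34 and 8 with library size alone, 9 and 15 with DESeq2 size factors, 3 and 1 with no filter, 5 and 2 with fractions weighted equally, and 3 to 261 and 4 to 422 without a gradient. Differences from blastocysts were 362 and 759, 649 and 1012, 32 and 79, 24 and 93, 34 and 101, and 25 and 83 in the same order, and 15 to 249 and 33 to 622.

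LRWD1, at 0.03, changed sign to -0.0071 with DESeq2 and with its size factors, -0.11 with equal weights, -0.0717 with 4 pools, -0.0707 with 36 pools, -0.15 with 12 fraction libraries, -0.037 without F7, -0.13 without F3, and -0.143 to -0.0767 without a gradient. RPSA had -0.0226 with F9 and F10 against F3 and F4 and -0.20 without gradient B, and MMAB ranged from -0.0425 to 0.782 without gradient A or B. Over 17 alternatives the median was 1.72 to 2.34 for ribosomal proteins, 1.68 to 2.21 for oxidative phosphorylation genes and -1.98 to -1.44 for oocyte genes. The median of genome activation genes was 0.032 with 12 fraction libraries, that of decay genes -0.04 without F10, that of lysosomal genes -0.0139 with 12 fraction libraries and -0.158 with the replicate block, and that of cumulus and granulosa genes -2.54 with 12 fraction libraries, -0.392 with only the 4 pools and -0.466 without F10. Without gradient B the medians of collagen and matrix, ZNF, lysosomal and cumulus genes were 0, and without gradient A that of RAB and RAS genes was 0. The causes were not tested.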

Other observations

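The following called genes belonged to no list and were chosen after their values were seen, so they stand for themselves and not for a pathway. The glycolytic enzymes TPI1, ENO1 and PGK1 were higher in polysomes, with 146 and 120.4 against 675 and 942 CPM, 248 and 201 against 935 and 1249 CPM and 62.5 and 66.95 against 301 and 301 CPM (adjusted p = 0.0444, 0.0412 and 0.0462 in the edgeR test). Both cellular retinoic acid binding proteins were called, CRABP1 at 189.8 and 171 CPM in monosomes and 869.8 and 860.3 CPM in polysomes and CRABP2 at 49.7 and 43.5 CPM against 209 and 288 CPM. A further interferon-induced gene, the membrane protein IFITM3, had 96.4 and 205 CPM in monosomes, 1202 and 1527 CPM in the intermediate pools and 1277 and 1250.2 CPM in polysomes (log2 difference 3.07 ± 0.44, adjusted p = 0.0371). The galactose-binding lectin LGALS1 had 48.9 and 50.7 CPM against 620.0 and 554 CPM, and PRDX4, a peroxidase of the endoplasmic reticulum, 27.3 and 41.3 CPM against 317 and 379.8 CPM. A haemoglobin gene listed as HBG had 91.3 and 64.9 CPM in monosomes and 689.9 and 909 CPM in polysomes (log2 difference 3.36 ± 0.39, adjusted p = 0.0371). Among genes of monosomes, the transcription factor STAT3 had 691 and 877 CPM in monosomes and 214 and 168 CPM in polysomes (log2 difference -2.03 ± 0.34, adjusted p = 0.0406).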
